A study of Rattus norvegicus with 62 samples.

Results

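The 9 immediate early genes described here are the neuronal activity genes Fos (ENSRNOG00000008015), Egr1 (ENSRNOG00000019422), Arc (ENSRNOG00000043465), Nr4a1 (ENSRNOG00000007607), Junb (ENSRNOG00000042838), Egr2 (ENSRNOG00000000640), Fosb (ENSRNOG00000046667), Dusp1 (ENSRNOG00000003977) and Npas4 (ENSRNOG00000020009). They were picked by gene ID from the 32545 genes of the count table, and all 9 were among the 16535 genes that passed the expression filter. RNA was sequenced from amygdala tissue of 62 male Long Evans rats of 10 to 12 weeks of age at exposure, 1 library per animal. Blast animals received 3 blast overpressure events of 74.5 kPa in a shock tube, 1 every 24 h, and sham animals had the same isoflurane anesthesia, restraint and handling without the overpressure. The sub-acute animals, called acute in the deposited labels, were tested for behavior 1 to 1.5 months after exposure (17 sham, 17 blast). The chronic animals were tested 12 to 14 months after it (14 sham, 14 blast), so age differs with the time-point. All animals went through behavioral testing, fear conditioning included. They were killed by decapitation under isoflurane about 1 week or more after the last test, so the tissue was not taken right after testing. The central and basolateral nuclei were taken from both hemispheres with 1.5 mm punches.

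Immediate early genes are transcribed within minutes of synaptic activity or growth factor signaling, without new protein synthesis, because the factors that switch them on, CREB and the serum response factor among them, are already bound or present in the nucleus. Most of their products are transcription factors that switch on later genes, and others act directly at the synapse or shut down the kinases that carried the signal. In the amygdala they are widely used as marks of recently active neurons, for example after fear conditioning, and their RNA decays quickly, so a level in frozen tissue is read as that of the time shortly before death.

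Promoter sequences are shown for the 4 genes with the largest spread between animals among the 7 found by symbol in RefSeq's promoter table (GRCr8 build), to set the response elements these genes are known for beside their levels. Entries for Fos and Arc were not in that table. Each sequence is the 250 bases before the annotated start, 5′ to 3′ on the gene's strand, with capitals marking matches to the cAMP response element TGACGTCA, to its core TGACG on either strand (CGTCA on the other) and to the CArG box of the serum response element. The 4 windows lie at chr20:21054442-21054691 on the minus strand for Egr2, chr1:211716103-211716352 on the minus strand for Npas4, chr10:17184603-17184852 on the plus strand for Dusp1 and chr7:134259888-134260137 on the plus strand for Nr4a1.
Egr2: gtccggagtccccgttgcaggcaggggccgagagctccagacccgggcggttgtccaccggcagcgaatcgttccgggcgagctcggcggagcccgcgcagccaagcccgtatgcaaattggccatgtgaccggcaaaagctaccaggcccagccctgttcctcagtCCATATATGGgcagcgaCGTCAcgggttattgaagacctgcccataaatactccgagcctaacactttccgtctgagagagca
Npas4: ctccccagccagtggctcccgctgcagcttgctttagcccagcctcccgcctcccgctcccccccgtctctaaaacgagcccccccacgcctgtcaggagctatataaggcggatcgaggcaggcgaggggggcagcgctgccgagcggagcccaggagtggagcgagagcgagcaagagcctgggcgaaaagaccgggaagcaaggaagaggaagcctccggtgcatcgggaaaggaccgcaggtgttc
Dusp1: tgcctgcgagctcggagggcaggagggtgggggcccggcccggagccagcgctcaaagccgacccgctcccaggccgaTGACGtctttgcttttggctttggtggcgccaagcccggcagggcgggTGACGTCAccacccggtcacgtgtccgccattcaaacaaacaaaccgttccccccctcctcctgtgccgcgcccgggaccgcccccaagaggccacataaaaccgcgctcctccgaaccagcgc
Nr4a1: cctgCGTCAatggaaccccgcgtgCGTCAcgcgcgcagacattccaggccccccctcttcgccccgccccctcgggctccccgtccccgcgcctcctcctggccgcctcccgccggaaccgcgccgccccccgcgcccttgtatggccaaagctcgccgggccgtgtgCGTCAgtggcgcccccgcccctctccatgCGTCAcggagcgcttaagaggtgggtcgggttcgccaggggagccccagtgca

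The full cAMP response element, which contains the core on both strands, occurred in 1 of the 7 promoters, that of Dusp1, with its first base at position -124 from the start, and in 1.59% of all 33469 promoters of the table. Its core occurred in 5 of 7, against 18.2% of all promoters, with 4 matches in Nr4a1 and none in Fosb or Npas4. CArG boxes occurred in 2 of 7, against 1.5% of all promoters, namely 1 in Egr2 and 2 in Egr1. The AP-1 site TGANTCA, to which Fos and Jun proteins bind, occurred in none of the 7 and in 6.34% of all promoters. These are matches of letters within a short window, and none of them is a measured binding site.

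Libraries held 18220986 to 78585782 counts. Sub-acute libraries were deeper, with medians of 50123693 for sham and 54959799 for blast, than chronic ones, with 42328495 for sham and 37460121 for blast, and the 2 libraries under 25000000 counts (CS115 and CB149) were both chronic. Animals are named as in the labels, by a letter for the time-point (A or C), a letter for the treatment (S or B) and a number. The first digit of that number was 1 in all 28 chronic and 7 of the 34 sub-acute animals, 2 in 26 sub-acute animals and 6 in 1, and the labels do not say what these number series stand for. Raw counts of the 9 genes ran from 28 (Egr2) to 11808 (Egr1), so no gene was near the detection limit in any library. Levels below are CPM, read counts scaled to a common library total with TMM factors, and because gene lengths of the build were not used here, they are compared between animals and not between genes. No gene table at hand paired the IDs with symbols, so the amygdala label was not checked against cell type markers, and the share of neurons in each punch was not tested.

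The first group of genes encodes members of AP-1, the dimeric transcription factor formed by Fos and Jun proteins. Sub-acutely, Fos spanned 6.10 to 17.1 CPM after sham exposure, with a median of 9.10, and 4.94 to 17.9 CPM after blast, with a median of 9.41. Chronically, it spanned 5.34 to 14.3 CPM after sham exposure (median 9.35) and 6.95 to 17.3 CPM after blast (median 9.90). The 4 groups of Fos values thus overlapped, with group medians within 1 CPM. Sub-acutely, 1 blast animal was above every sham animal and 2 were below all of them. Chronically, 2 of the 14 blast animals were above every sham animal, and 4 of the 14 sham animals were below every blast animal. Blast and sham animals differed by a log2 fold change of -0.0076 sub-acutely (SE 0.15, 95% interval -0.30 to 0.29) and of 0.19 chronically (SE 0.18, -0.16 to 0.54).

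Fosb, whose splice form deltaFosB is known for accumulating with repeated stimulation, had the single most deviant value. Sub-acute values spanned 7.57 to 43.7 CPM for sham (median 15.0) and 11.7 to 29.8 CPM for blast (median 17.9). Chronic values were tighter, spanning 11.8 to 21.7 CPM for sham (median 17.2) and 15.4 to 24.7 CPM for blast (median 17). The groups overlapped, and the 43.7 CPM came from sub-acute sham animal AS223. Of the 17 sub-acute blast animals, 14 were above the sub-acute sham median, yet the log2 difference of 0.17 (SE 0.12, 95% interval -0.07 to 0.42) did not pass the test (adjusted p = 0.770, limma). Gene-level counts do not separate deltaFosB from full-length Fosb.

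Junb, a Jun partner of Fos proteins, had a sub-acute median of 43.4 CPM after sham exposure (29.1 to 66.8) and 55.7 CPM after blast (33.4 to 78.3). The chronic medians were 50.6 CPM after sham exposure (40.9 to 63.6) and 54.1 CPM after blast (40.2 to 75.5). In both cohorts 3 blast animals were above every sham animal. Sub-acutely 2 sham animals were below every blast animal, chronically 1 blast animal was below every sham animal, and the others overlapped. The sub-acute log2 difference of 0.21 (SE 0.10, 95% interval -0.00046 to 0.42) had the smallest p of the 9 genes in that comparison, but it passed neither the raw threshold (p = 0.0505, limma, 17 against 17 animals) nor the adjusted one (adjusted p = 0.770).

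Egr1 and Egr2 encode zinc finger transcription factors, of which Egr1 (Zif268) is tied to memory consolidation and Egr2 (Krox-20) also to myelination by Schwann cells. Sub-acute Egr1 medians were 138.5 CPM for sham (90.6 to 174) and 142 CPM for blast (111.3 to 198), and chronic medians 124.5 CPM for sham (76.9 to 181) and 131 CPM for blast (63.01 to 154). In blast animals it was lower at the chronic time-point by a log2 change of -0.25 (SE 0.11, 95% interval -0.46 to -0.04), a ratio of 0.841 that fell short of the 1.2-fold threshold and gave p = 0.0212 and adjusted p = 0.0981 (limma). Only 2 of the 14 chronic blast animals were above the sub-acute blast median, and 5 of the 17 sub-acute blast animals were above every chronic one. In sham the same contrast was -0.14 (SE 0.11, -0.35 to 0.07), with 4 of 14 chronic animals above the sub-acute median.

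Egr2 had the largest within-group spread of the 9 genes. Sub-acutely it spanned 2.20 to 13.2 CPM after sham exposure (median 5.81) and 3.004 to 14.5 CPM after blast (median 6.54). Chronically it spanned 1.23 to 7.95 CPM after sham exposure (median 4.16) and 3.45 to 7.89 CPM after blast (median 5.64). The chronic sham group reached lowest, with 5 of its 14 animals below every chronic blast animal, and 3 of its 14 above the sub-acute sham median. Between time-points in sham the log2 change was -0.55 (SE 0.24, 95% interval -1.02 to -0.08), with p = 0.0226 and adjusted p = 0.202 in limma, and adjusted p from 0.107 to 1.00 over 10 alternatives. Between chronic blast and sham it was 0.52 (SE 0.25, 0.016 to 1.03), with p = 0.0436 and adjusted p = 0.901, and from 0.724 to 0.999 over 9 alternatives. Neither Egr2 contrast passed the adjusted test, nor did the difference between its changes with time (0.37, SE 0.32, adjusted p = 0.876, limma).

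Egr2 was also the gene whose level went with sequencing depth, which itself differed between the time-points. Over 62 animals, with group means removed from both, its log2 CPM correlated with the log2 library total at r = 0.370 (p = 0.00255 in a two-sided permutation test, and 0.0230 after adjustment over the 9 genes) and rho = 0.349 (adjusted p = 0.0501). Without CB149 and CS115, the 2 farthest from the median total, r was 0.251 (p = 0.0648, permutation), so passing the test, though not the direction, rested on those 2 animals. No other gene passed, with Egr1 next at r = 0.266 (adjusted p = 0.231). With the library total as a covariate the log2 change of Egr2 with time was -0.34 in sham and turned from -0.18 to 0.10 in blast.

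Nr4a1, an orphan nuclear receptor, had sub-acute medians of 33.3 CPM for sham (21.6 to 59.8) and 35.98 CPM for blast (24.3 to 59.5), and chronic medians of 34.7 CPM for sham (25.4 to 58.2) and 40.8 CPM for blast (29.4 to 59.5). The highest values of the 4 groups were nearly equal, and the groups overlapped over most of their range. Its log2 difference between blast and sham was 0.087 (SE 0.13, 95% interval -0.17 to 0.34) sub-acutely and 0.095 (SE 0.14, -0.19 to 0.38) chronically.

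Arc, which regulates removal of AMPA receptors from the synapse, had sub-acute medians of 57.4 CPM for sham (30.8 to 132.1) and 64.6 CPM for blast (37.1 to 118.2), and chronic medians of 71.5 CPM for sham (51.9 to 119.6) and 76.8 CPM for blast (36.8 to 172). The groups overlapped, although 5 of the 17 sub-acute sham animals were below every chronic sham animal. The log2 change with time was 0.30 in sham (SE 0.18, 95% interval -0.06 to 0.67, adjusted p = 0.372) and 0.25 in blast (SE 0.18, -0.12 to 0.61, adjusted p = 0.372), neither past the test in limma.

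Dusp1, a phosphatase that inactivates MAP kinases, had sub-acute medians of 19.3 CPM for sham (12.3 to 42.2) and 19.1 CPM for blast (14.1 to 48.1), and chronic medians of 21.4 CPM for sham (14.4 to 60.3) and 27.4 CPM for blast (14.3 to 56.6). The groups overlapped over most of their range, and the highest chronic blast value came from CB124. The log2 change with time was 0.25 in sham (SE 0.19, 95% interval -0.12 to 0.63, adjusted p = 0.478) and 0.31 in blast (SE 0.19, -0.07 to 0.68, adjusted p = 0.276), again without passing in limma.

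Npas4, a neuron-specific factor that responds to calcium influx and shapes inhibitory synapses, was the only one of the 9 genes with a difference past the adjusted test. Sub-acutely it spanned 2.90 to 15.1 CPM after sham exposure (median 5.25) and 3.96 to 8.75 CPM after blast (median 5.33). Chronically it spanned 2.78 to 13.1 CPM after sham exposure (median 7.51) and 3.24 to 21.2 CPM after blast (median 8.41). Of the 14 chronic blast animals, 7 were above every sub-acute blast animal and 1 was below all of them, so the groups overlapped with a wider chronic group. Npas4 rose with time in blast animals by 0.61 on the log2 scale (SE 0.21, 95% interval 0.18 to 1.03), a fold of 1.52, with p = 0.00561 and adjusted p = 0.0423 in limma. In a bulk punch such a difference can be more RNA per cell or more cells that make it, and these cannot be told apart.

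**Figure D1:**
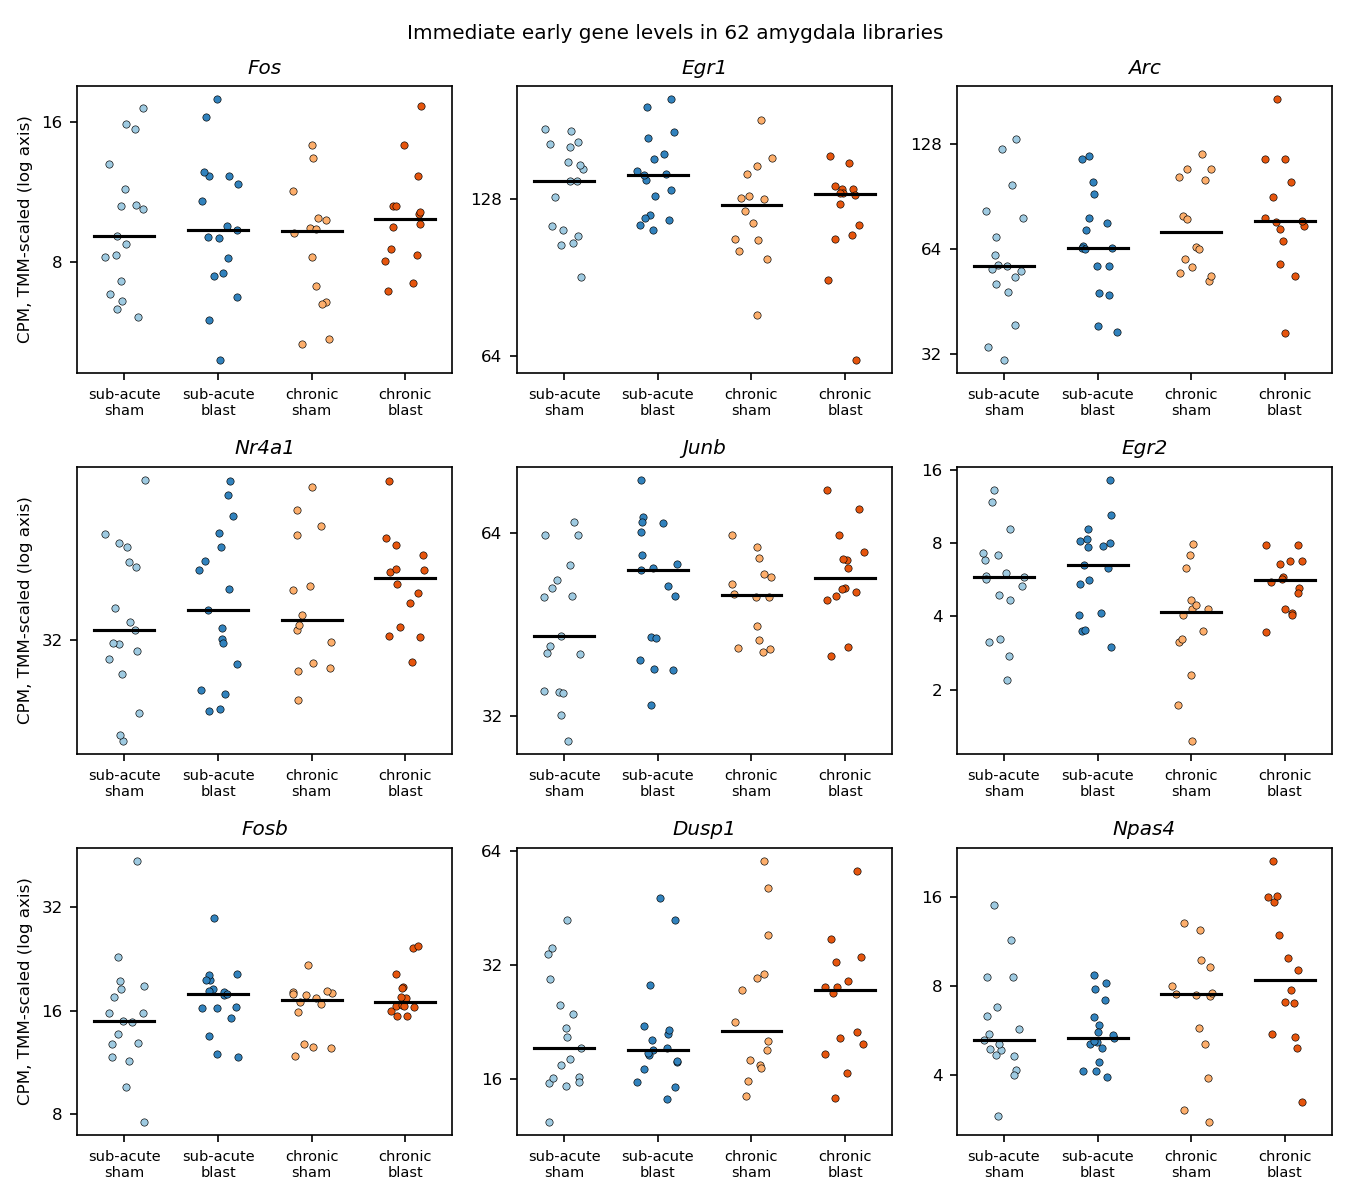
CPM (TMM-scaled, log axis) of each of the 9 genes in each animal, 1 panel per gene, with a line at the group median, for 17 sham and 17 blast animals of the sub-acute cohort and 14 of each of the chronic cohort. The groups overlap in every panel, and in the Npas4 panel 7 chronic blast animals sit above every sub-acute blast animal.

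The Npas4 difference was close to the threshold. In sham the log2 change with time was 0.19 (SE 0.22, 95% interval -0.25 to 0.63, adjusted p = 0.677), and the test of the difference between both changes, the treatment by time-point interaction, gave 0.42 (SE 0.31, -0.19 to 1.03, adjusted p = 0.854), so Npas4 was not shown to change more in blast than in sham. The group means of log2 CPM stood in the order sub-acute blast (2.49 ± 0.35 SD), sub-acute sham (2.57 ± 0.58), chronic sham (2.76 ± 0.68) and chronic blast (3.15 ± 0.78). None of the differences between neighbours in that order passed the adjusted test (adjusted p of 0.935, 0.677 and 0.901 in turn, limma).

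Time-point and number series are confounded, since all chronic animals belong to series 1. Within that series, 14 chronic and 5 sub-acute blast animals differed by a log2 change of 0.71 in Npas4 (adjusted p = 0.347), the 5 sub-acute animals running from 3.96 to 8.22 CPM with a median of 5.11. The call was also lost with the series as a covariate (0.68, adjusted p = 0.159), with the library total as a covariate (0.45, adjusted p = 0.269), with surrogate variables (0.16, adjusted p = 0.759) and without the 2 libraries under 25000000 counts (0.54, adjusted p = 0.0670), and it was kept with edgeR (adjusted p = 0.00594), DESeq2 (0.00207), no filter (0.0302) and library size scaling alone (0.0368). Leaving out any 1 of 15 animals also ended it, namely chronic blast animals CB121, CB126, CB128, CB136, CB139, CB147 and CB149 and sub-acute blast animals AB101, AB108, AB109, AB110, AB206, AB207, AB218 and AB229, with log2 changes of 0.53 to 0.61 and adjusted p of 0.0515 to 0.0836.

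Read gene by gene against all genes tested, the 9 genes gave few calls in any comparison. A call needed an adjusted p under 0.05 and a fold of at least 1.2. With a log2 fold change of 1.2 as the threshold, 0 of 9 would be called in each of the 4 comparisons, Npas4 included, as its change of 0.61 was the largest of any member. The share of all genes called at that threshold was not determined, so this count has no background beside it. For blast vs. sham sub-acutely, 0 of 9 were called by limma and likewise 0 by edgeR and DESeq2, where 0% of all 16535 genes were called by limma; at raw p under 0.05 with that fold 0 of 9 passed, against 1.21% of all genes. Chronically, 0 of 9 were called by each of the 3 tools, with 0% of all genes called by limma, and 1 of 9 (Egr2) passed at raw p in limma, against 2.5%. The signs leaned one way, with 7 of 9 higher in blast sub-acutely (median log2 0.087, all genes -0.00019) and 8 of 9 chronically (median 0.12, all genes 0.0016). These 9 values are not independent, since the genes moved together between animals, and about as many of all genes were higher as lower (50.0% and 50.5% higher).

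For chronic vs. sub-acute in sham, 0 of 9 were called by limma, against 1.55% of all genes, and 1 of 9 (Egr2) at raw p, against 8.85%. Likewise 0 of 9 were called by edgeR and DESeq2, for which shares of all genes were not determined. In blast, 1 of 9 (Npas4) was called, against 9.73% of all genes, or 6.71% counting those higher at the chronic time-point, and the same 1 of 9 at raw p, against 16.3%. That share is near the background, so the count shows nothing particular to these genes. The median log2 change was 0.10 in sham (6 of 9 higher) and 0.070 in blast (7 of 9 higher), against -0.0047 and -0.017 over all genes. The comparisons share animals and are not independent of each other. In the interaction 0 of 9 passed with any of the 3 tools, where 0% of all genes passed in limma. At raw p 0 of 9 passed in limma, against 5.56%, with a median of 0.0078 and a smallest adjusted p of 0.854.

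**Figure D2:**
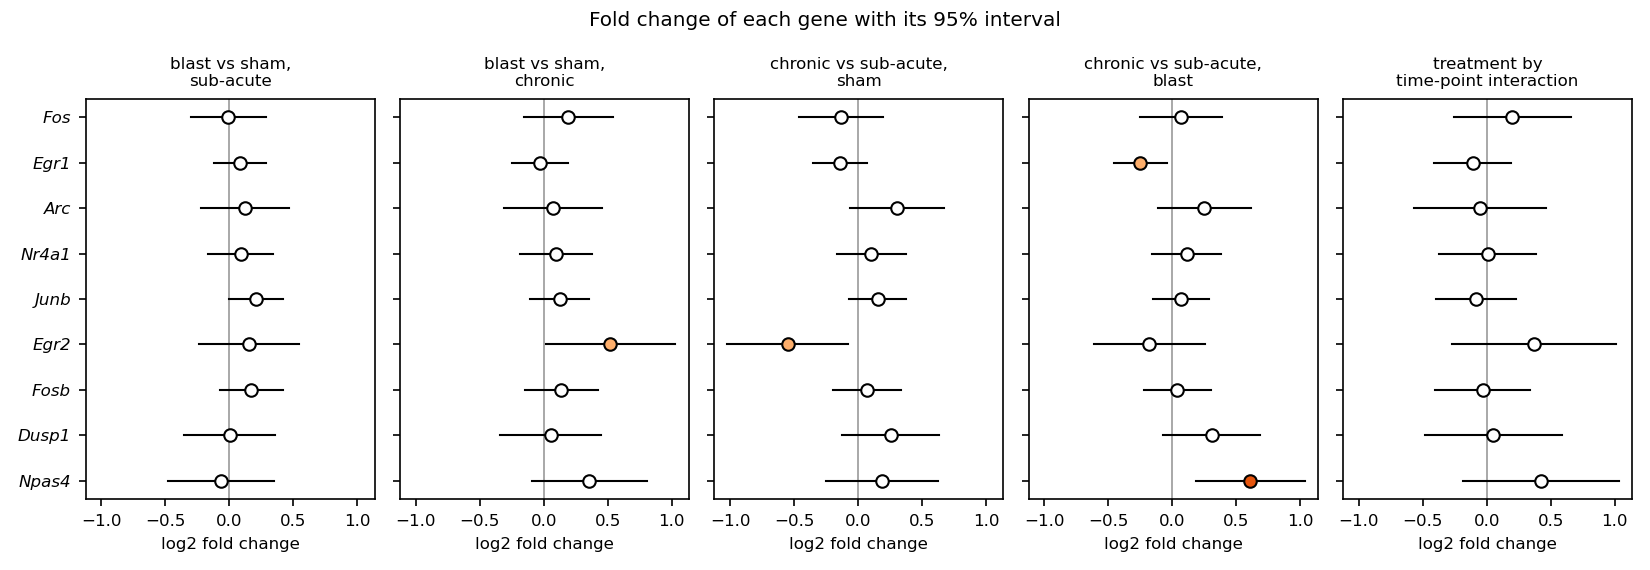
Log2 fold change of each gene with its 95% interval in the 4 comparisons and the interaction, from limma over 62 animals. Filled dark is the 1 change past the adjusted test (Npas4, chronic vs. sub-acute in blast), filled light are those with raw p under 0.05 alone (Egr2 and Egr1), and every other interval includes 0.

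The clearest pattern of the 9 genes was not between groups but between animals of the same group. With group means removed, all 36 pairs of genes correlated positively over 62 animals (median Pearson r 0.464), and 32 of 36 passed a two-sided permutation test with shuffling within groups after Benjamini-Hochberg adjustment over the 36 pairs. The share of pairs among all genes that would pass the same test was not determined, so the count of 32 has no background beside it. The median r of a member with the genes outside the list lay between -0.041 (Arc) and 0.0096 (Fos). The strongest was Arc with Nr4a1, at r = 0.763 and rho = 0.765 (permutation p = 1e-05, a value that 100000 resamples cannot go below, and 3.27e-05 after adjustment), and r was 0.747 without the 2 animals farthest from the median. Nr4a1 with Junb (r = 0.718, rho = 0.730), Arc with Junb (r = 0.712, rho = 0.723) and Fos with Nr4a1 (r = 0.707, rho = 0.735) followed, each with the same permutation p and adjusted p.

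Pairs within the AP-1 and zinc finger families varied in strength. The AP-1 genes Junb and Fosb had r = 0.646 (rho = 0.727, adjusted p = 3.27e-05 by permutation), Fos and Junb r = 0.523 (rho = 0.524, adjusted p = 0.000144), and Fos and Fosb r = 0.348 (rho = 0.275, adjusted p = 0.0109). The zinc finger genes Egr1 and Egr2 had r = 0.364 (rho = 0.288, adjusted p = 0.00593 by permutation), less than Egr1 with Arc (r = 0.601) or Egr2 with Fos (r = 0.587). The 4 pairs that did not pass were Egr1 with Npas4 (r = 0.258), Arc with Egr2 (r = 0.253), Egr1 with Dusp1 (r = 0.114) and Arc with Dusp1 (r = 0.0918, rho = 0.206, permutation p = 0.483, which is also its adjusted p). By rho 32 pairs passed as well, but not the same ones: Egr1 with Npas4 (adjusted p = 0.0248 by permutation) and Egr1 with Dusp1 (0.0413) passed, and Egr1 with Fosb (0.156) and Fosb with Npas4 (0.0530) did not.

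**Figure D3:**
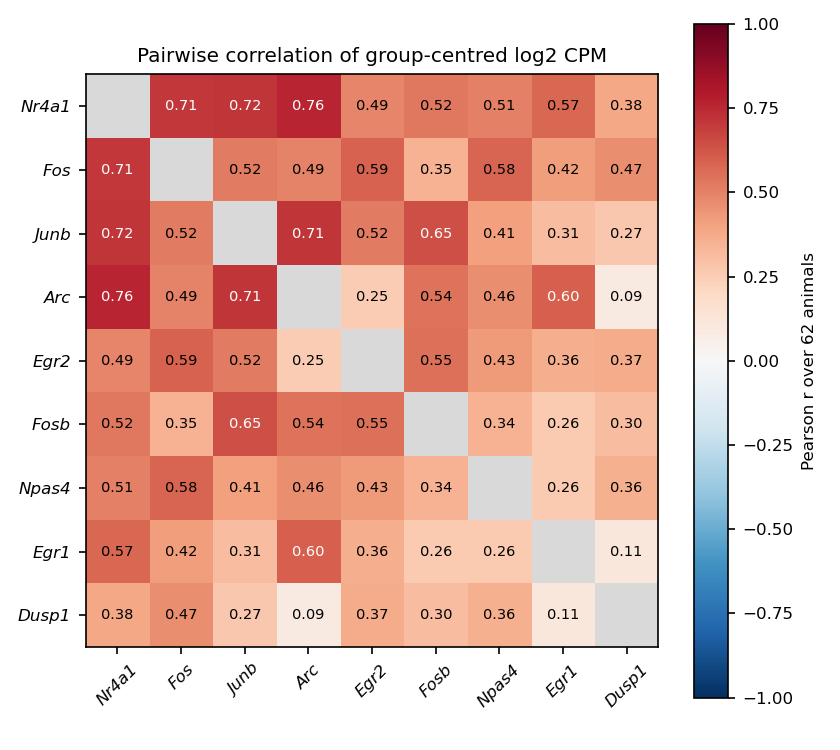
Pearson r between each pair of the 9 genes over 62 animals, from log2 CPM with group means removed. All 36 values are positive, the darkest cells join Nr4a1, Arc, Junb and Fos, and the palest is Arc with Dusp1.

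**Figure D4:**
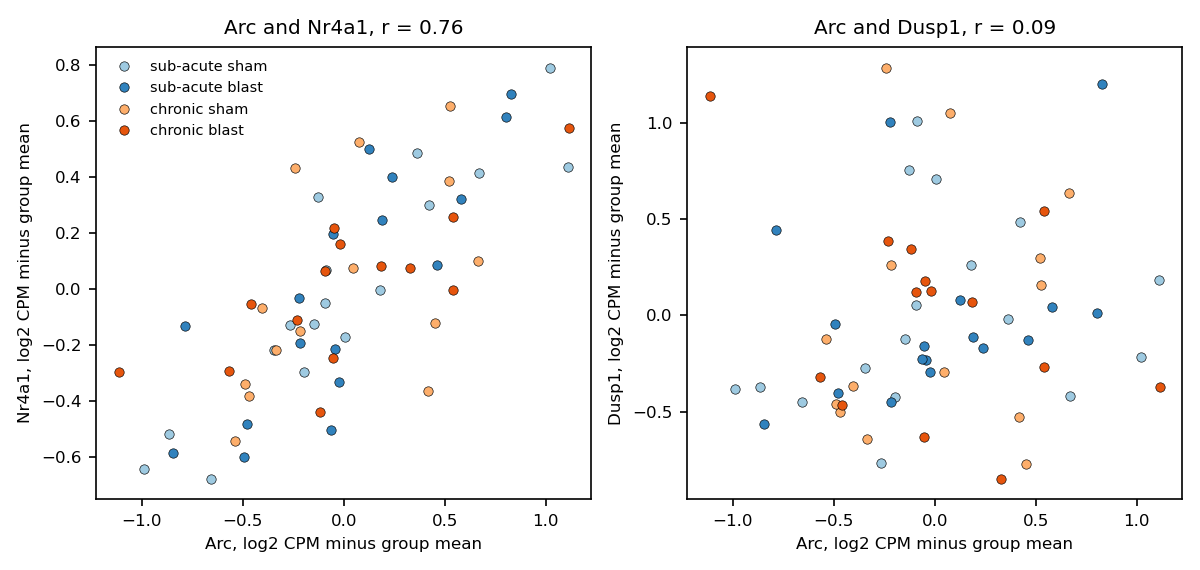
Log2 CPM minus the group mean of Nr4a1 (left) and Dusp1 (right) against that of Arc, each point an animal colored by group. The left cloud rises from lower left to upper right in all 4 groups (r = 0.763), and the right one has little slope (r = 0.0918), with chronic blast animal CB124 at its upper left.

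Most pairs also passed under other scalings and with covariates removed. The number of pairs passing was 28 with library size scaling alone, 33 with the library total regressed out, 31 with the number series regressed out, 33 with 9 surrogate variables regressed out, 33 without the 2 small libraries and 27 without the 2 animals farthest from the median of 1 gene of the pair, and all 36 were positive each time. Within number series 2 (26 animals, sub-acute only) 31 pairs passed and 36 were positive (median r 0.583), and within number series 1 (35 animals) 15 passed and 34 were positive (median r 0.340). Over the 34 sub-acute animals 29 passed (median r 0.537), and over the 28 chronic animals 13 passed and 32 were positive (median r 0.383).

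Group by group, the median r over the 36 pairs was 0.544 in sub-acute sham (35 positive, 20 passing), 0.567 in sub-acute blast (35 positive, 22 passing), 0.448 in chronic sham (35 positive, 5 passing) and 0.233 in chronic blast animals (28 positive, 2 passing), where the chronic groups have 14 animals each and the sub-acute ones 17. Arc and Nr4a1 correlated at r = 0.907, 0.810, 0.518 and 0.748 in these groups in turn. The difference between the groups' correlations was not tested.

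Ranked by r against the 16534 other genes tested, members were near the top for some members and far down for others. Nr4a1 was the gene with the highest r of all for Fos, for Arc and for Junb, and Arc was the gene with the highest r for Nr4a1. Fos was second of all genes for Npas4, Junb was at rank 10 for Fosb, Arc at rank 49 for Egr1, and Fos at rank 49 for Dusp1 and 304 for Egr2. Among the 100 genes most correlated with each, Fos and Nr4a1 had 7 of the other 8 members, Fosb 4, Junb and Npas4 3, Egr1 and Arc 2, Dusp1 1 and Egr2 0. Within the first 1000 genes were all of the other 8 members for Fos and Nr4a1, 7 for Npas4, 5 for Junb and 4 each for Egr1, Arc, Egr2, Fosb and Dusp1, and the lowest ranks were 6251 (Arc for Dusp1), 6218 (Dusp1 for Arc) and 5335 (Dusp1 for Egr1). Genes outside the list also correlated with some members: r was above 0.5 for 5.86% of the 16526 such genes with Arc, 4.71% with Egr2, 2.83% with Junb and 1.43% with Egr1, and for under 1% with each of the other 5. Dusp1 was the most loosely attached, with a mean r of 0.294 to the other members, where Nr4a1 had 0.583 and Fos 0.516.

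Individual animals stood high or low for the set as a whole. In units of the within-group SD, 7 of 62 animals were above their group mean for all 9 genes and 5 were below it for all 9. Sub-acute blast animal AB205 was highest, with a mean deviation of 1.78 SD and every gene between 1.09 and 2.31 SD above its group mean. Sub-acute sham animal AS223 followed at 1.63, led by Fosb at 4.15 SD, while the lowest were sub-acute sham animals AS204 (-1.37) and AS224 (-1.35). Because each deviation was taken from the animal's own group mean, every group must hold animals above and below it. The deviations therefore do not compare sham with blast. The total counts of AB205 (57024613) and AS223 (50432005) were near their group medians.

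**Figure D5:**
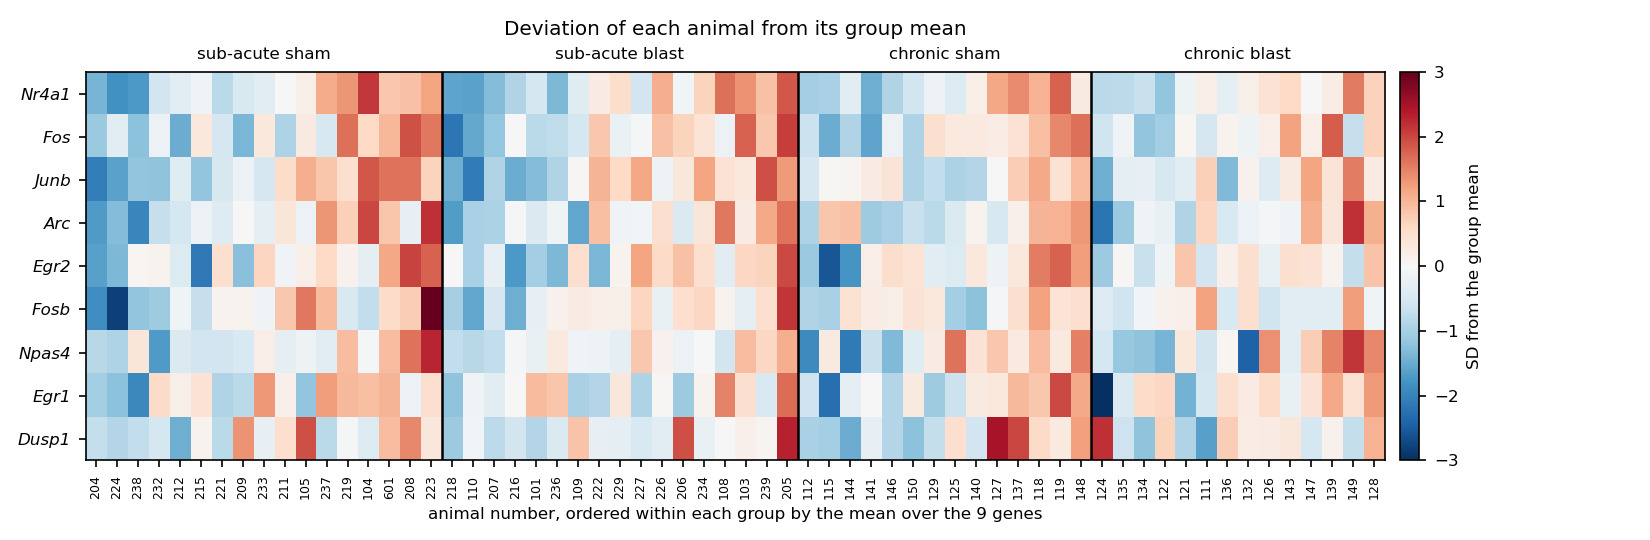
Deviation of each animal from its group mean for each gene, in SD (color, limited to 3 SD in either direction), with animals as columns ordered within each of the 4 groups by their mean over the 9 genes. Whole columns are blue at the left and red at the right of each group, most evenly in the sub-acute groups, and the Dusp1 row departs most from the others.

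Outside the list, 43 of 12743 genes with a mean log2 CPM of at least 1 (0.337%) had r above 0.5 with the mean of the 9 members' deviations over 62 animals. The highest were ENSRNOG00000004100 (r = 0.661, rho = 0.610, median 4.63 CPM) and ENSRNOG00000024363 (r = 0.590, rho = 0.548, median 4.93 CPM). The lowest were ENSRNOG00000002372 (r = -0.556, rho = -0.541) and ENSRNOG00000008523 (r = -0.550, rho = -0.507). These 4 were picked for the likeness, so their r is a description, and no symbol is given because no table at hand paired the IDs.

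The spread between animals of a group was large for these genes. The within-group SD of log2 CPM was 0.63 for Egr2, 0.61 for Npas4, 0.53 for Dusp1, 0.52 for Arc, 0.45 for Fos, 0.38 for Nr4a1, 0.37 for Fosb, 0.31 for Junb and 0.30 for Egr1, where the median over all genes tested was 0.30. Compared with genes within 0.5 log2 of the same mean level, 76.3% (Egr1) to 96.6% (Arc) had a smaller SD than the member. The 95% intervals of the blast vs. sham differences above were wide for the same reason, and in Npas4 reached from -0.48 to 0.35 sub-acutely and from -0.09 to 0.81 chronically.

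The study also compared variances between conditions, and for these 9 genes 0 of 36 variance ratios passed a two-sided permutation test after adjustment (4 of 36 at raw p under 0.05). The nearest was Npas4, whose variance in chronic blast animals was 5.05 times that in sub-acute blast animals (permutation p = 0.00355, adjusted p = 0.128). The other 3 at raw p were below 1, namely Junb in sham (0.338, p = 0.0155), Nr4a1 in blast (0.398, p = 0.0368) and Egr2 in blast (0.343, p = 0.0377), each chronic over sub-acute by permutation. The median ratio of the 9 genes was 0.863 with time in sham and 0.547 with time in blast, where the medians over all genes were 1.42 and 2.41. Dusp1 in sham (1.64) and Npas4 in blast (5.05) were above those medians. Whether the members differ from all genes in this was not tested, and the chronic libraries were less deep. For blast over sham the medians were 0.805 sub-acutely (all genes 0.806) and 0.681 chronically (all genes 1.27).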

How the data were processed

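Libraries were made from total RNA with ribosomal RNA depletion by a stranded kit and sequenced as paired reads of 50 bases. The authors aligned them with STAR 2.4.2a to Rnor 6.0, counted them per Ensembl gene with featureCounts 1.4.3-p1 and deposited raw read counts. For each of the 62 animals 1 column was used. Strand and multi-mapping settings are not given in the sources used here, so reads from overlapping or antisense genes may be included. The count table had 2 further columns, labelled with a repeated animal number, that matched no sample and were not used. Groups came from the sample labels.

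TMM factors and the expression filter came from edgeR 4.0.16, and voom with limma 3.58.1 in R 4.3.3 was fitted to 4 group means over 62 animals, with Benjamini-Hochberg adjustment over 16535 genes. The threshold was a fold of 1.2; the study's methods write it as a logFC of 1.2, which was tried as an alternative after seeing the data. Correlations and variances used log2 CPM (prior count 2) and permutation tests with 100000 resamples. Alternatives included edgeR's quasi-likelihood test, DESeq2 1.42.0, surrogate variables (sva 3.50.0), covariates and leaving out each animal. The model was tested on simulated data.

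The members and lists were chosen with earlier results of these data known. All 9 members were named, with the 2 genes most and the 2 least alike in pattern and promoters of up to 4 members by spread. Their symbols were given with the list of IDs. Lists of cell type markers, other immediate early genes and activity-regulated genes could not be matched to IDs and were not analysed here.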

Additional observations from a re-analysis of the deposited data

How the results depend on the processing

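Directions and calls were recomputed under each alternative. Beside Npas4, no gene crossed the adjusted threshold under any of them, and the changes of sign below concern log2 differences that passed no test. The cause of each was not tested. No paired analysis was possible because each of the 62 animals used belongs to 1 group and its number to 1 of them.

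The 1 call for chronic vs. sub-acute in blast became 0 with the number series as a covariate, surrogate variables, the library total as a covariate, the 2 small libraries left out, number series 1 alone or a log2 fold change of 1.2 as the threshold, and ranged from 0 to 1 when single animals were left out. The 32 correlated pairs became 13 in chronic animals only and 15 in number series 1 only, both with fewer animals. The 1 gene correlated with the library total became 0 by Spearman's rho, an alternative chosen after seeing the data.

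Signs of single genes turned as follows. With edgeR, Dusp1 was at -0.0066 for blast vs. sham sub-acutely, Fosb at -0.025 with time in sham, and the interactions of Arc, Nr4a1 and Fosb were 0.020, -0.0055 and 0.059. With DESeq2, the same Dusp1 and Fosb differences were -0.011 and -0.020 and the interactions of Arc and Fosb 0.028 and 0.066. Without a filter the Nr4a1 interaction was -0.0051, and with library size alone sub-acute Dusp1 was -0.011. With the number series as a covariate, sub-acute Fos was 0.025, sub-acute Dusp1 -6.2e-05, and Nr4a1 -0.054 with time in sham and -0.029 in blast. With surrogate variables, sub-acute Npas4 was 0.017, chronic Egr1 0.029 and the Arc interaction 0.017. With the library total, sub-acute Dusp1 was -0.013, Egr2 0.10 with time in blast, and the interactions of Nr4a1 and Fosb -0.010 and 0.0035. Without the small libraries the Nr4a1 interaction was -0.052. In number series 1 alone, with only 2 sub-acute sham animals, the change with time in sham was -0.16 for Arc, -0.33 for Nr4a1, -0.30 for Junb, -0.10 for Fosb and -0.17 for Dusp1.

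With 1 animal left out at a time, the log2 difference of chronic blast vs. sham ran from -0.0093 to 0.16 for Arc, -0.031 to 0.15 for Dusp1 and -0.073 to 0.047 for Egr1. Sub-acutely it ran from -0.073 to 0.067 for Dusp1, -0.065 to 0.050 for Fos and -0.13 to 0.019 for Npas4. Fos ran from -0.0020 to 0.13 with time in blast. The interaction ran from -0.13 to 0.038 for Arc, -0.032 to 0.15 for Dusp1, -0.13 to 0.033 for Fosb and -0.041 to 0.058 for Nr4a1. Npas4 with time in blast ran from 0.53 to 0.73.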

Other observations

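The correlations between members were lowest in chronic blast animals, and the pairs that hold Dusp1, the phosphatase among the 9 genes, were among them. Its median r with the other 8 genes was 0.373 in sub-acute sham, 0.462 in sub-acute blast and 0.493 in chronic sham animals, with 1, 0 and 0 of 8 negative, and -0.202 in chronic blast animals, with 5 of 8 negative and the lowest at -0.575 with Junb. 1 animal moved these values: chronic blast animal CB124 stood at 2.19 SD from its group mean for Dusp1 but at -2.19 SD for Arc and -3.17 SD for Egr1. Without CB124, a choice made after seeing the data, the median r of Dusp1 in chronic blast was 0.0674 with 3 of 8 negative, and Arc with Dusp1 went from -0.413 to -0.0691. The other 28 pairs moved the opposite way, from a median r of 0.366 with 3 negative to 0.249 with 9 negative. Neither the difference between groups nor that between Dusp1 and the other members was tested. The total count of CB124, 37589381, was near its group median.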
